A study of Mus musculus with 95 samples.

Results

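The elastases, chymotrypsins and trypsins are the serine proteases that the pancreas makes to digest dietary protein. Described here are 10 of the 20638 genes in a count table of 95 mouse islet libraries: the elastases Cela1, Cela2a, Cela3a and Cela3b, the chymotrypsins Ctrb1, Ctrl and Ctrc, and the trypsinogens Prss1, Prss2 and Prss3. The genes were named by symbol, and all 10 passed the filter on low values, a CPM (counts made comparable between libraries by their scaled sizes) of 1 or more in at least 10 libraries. They were chosen by their family and with their levels in these libraries already known, to set each gene beside Clps, the lipase cofactor colipase. The selection was made on the log2 ratio to Clps: Cela3a, Ctrc and Prss1 had been singled out as differing by the run of numbers in the libraries' labels. The values that led to the choice are given as a description, with no test.

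Acinar cells of the exocrine pancreas make these enzymes as inactive precursors and store them in zymogen granules. In the gut, enteropeptidase activates trypsinogen, and trypsin then activates the chymotrypsinogens, the proelastases and more trypsinogen. Islets are the endocrine part of the pancreas, so transcripts of digestive enzymes in islet RNA are a common sign of acinar tissue that came along with the islets.

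The libraries were made from poly(A) RNA of pancreatic islets taken from founder-strain mice of the Diversity Outbred (DO) panel, which was bred from several inbred strains. Every library had the same labels for tissue, islet, and for diet, 45% fat, and the protocol calls the diet high-fat, high-sugar (HFHS). The labels used here give no strain, sex, age or pooling of animals for a library, and nothing in them says that each library came from its own animal. Libraries are therefore named by their label numbers. All 95 were left without a group, so the values below are single values, medians or ranges.

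Library totals ran between 16411800 and 34357300 estimated counts, with a median of 26552700. The label of islet was checked on the hormone genes Ins1, Ins2, Gcg, Sst and Ppy, which had at least 215 CPM each in every library and together took 6.31% to 24.8% of the counts, with a median of 18.2%. The 26 acinar genes listed as markers took 0.223% to 32.4%, with a median of 4.83%. The 10 proteases alone took between 0.0982% of the counts in library 25 and 17.8% in library 54, with a median of 2.78%. In bulk RNA, fewer acinar cells and less of a transcript in each acinar cell cannot be told apart, so each gene is also given as a log2 ratio, its CPM over the CPM of Clps in the same library. A prior count of 2 was added before the log2, which lifts the ratios of genes with few counts where Clps was low. Clps itself had 57.1 CPM in library 25, a median of 1395 CPM and 19305 CPM in library 54.

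The genes lie in small clusters on several chromosomes. In the positions of the authors' table, on GRCm38, Cela3a (chromosome 4, 137401554 to 137409791) and Cela3b (137420999 to 137430540) are neighbours on the minus strand, 11207 bases apart. Cela2a (141814962 to 141826160) and Ctrc (141814962 to 141846359) are on the same chromosome and strand and overlap. The trypsinogens Prss3 (41373814 to 41377678, minus strand), Prss1 (41458932 to 41463786, plus strand) and Prss2 (41521787 to 41525079, plus strand) lie on chromosome 6. Ctrl (105931994 to 105933862) and Ctrb1 (111686510 to 111691010) are on chromosome 8, and Cela1 (100674425 to 100687920) on chromosome 15, all on the minus strand.

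Promoter windows from RefSeq on GRCm38.p6, covering 250 bases before to 50 after the start of the gene, were at hand for 9 of the 10 genes. Ctrc had none. These are reference sequences, and the alleles carried by the mice were not analysed here. The first pair is shown because the neighbours Cela3a (chr4:137409742-137410041, minus strand) and Cela3b (chr4:137430471-137430770, minus strand) are near copies that behaved very differently across the libraries. Capitals mark the 6 letters CACCTG or, on the other strand, CAGGTG, a core that the acinar factor PTF1 can bind as an E-box.
Cela3a: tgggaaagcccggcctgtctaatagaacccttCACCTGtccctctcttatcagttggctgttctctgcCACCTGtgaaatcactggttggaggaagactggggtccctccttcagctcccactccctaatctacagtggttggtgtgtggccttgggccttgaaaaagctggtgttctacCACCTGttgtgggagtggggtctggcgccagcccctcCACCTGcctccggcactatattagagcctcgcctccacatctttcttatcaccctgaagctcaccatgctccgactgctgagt
Cela3b: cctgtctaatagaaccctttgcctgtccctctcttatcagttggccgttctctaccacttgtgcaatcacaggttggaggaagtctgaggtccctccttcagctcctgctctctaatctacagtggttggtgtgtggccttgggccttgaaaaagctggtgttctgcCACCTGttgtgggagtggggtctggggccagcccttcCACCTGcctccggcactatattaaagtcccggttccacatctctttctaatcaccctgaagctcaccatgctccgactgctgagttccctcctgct
Aligned, 85.0% of the columns of this pair were identical. The Cela3a window held 4 matches and the Cela3b window 2.

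The second pair sets Ctrl (chr8:105933813-105934112, minus strand), which was low in a single run of libraries, beside Ctrb1 (chr8:111690961-111691260, minus strand), which followed Clps.
Ctrl: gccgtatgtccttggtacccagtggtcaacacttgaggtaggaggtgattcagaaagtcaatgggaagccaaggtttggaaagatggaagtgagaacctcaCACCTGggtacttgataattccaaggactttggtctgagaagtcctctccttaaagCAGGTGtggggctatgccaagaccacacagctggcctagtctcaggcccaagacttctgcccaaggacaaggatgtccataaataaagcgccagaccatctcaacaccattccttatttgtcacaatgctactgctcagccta
Ctrb1: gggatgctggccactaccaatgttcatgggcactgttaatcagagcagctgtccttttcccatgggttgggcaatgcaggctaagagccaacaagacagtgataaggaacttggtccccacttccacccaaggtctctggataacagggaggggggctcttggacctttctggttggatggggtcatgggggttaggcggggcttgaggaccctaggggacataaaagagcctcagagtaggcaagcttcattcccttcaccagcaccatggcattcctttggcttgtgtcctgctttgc
The Ctrl window held 2 matches and the Ctrb1 window 0, and 48.9% of their aligned columns were identical. The third pair sets the low trypsinogen gene Prss1 (chr6:41458680-41458979, plus strand) beside the abundant Prss2 (chr6:41521526-41521825, plus strand).
Prss1: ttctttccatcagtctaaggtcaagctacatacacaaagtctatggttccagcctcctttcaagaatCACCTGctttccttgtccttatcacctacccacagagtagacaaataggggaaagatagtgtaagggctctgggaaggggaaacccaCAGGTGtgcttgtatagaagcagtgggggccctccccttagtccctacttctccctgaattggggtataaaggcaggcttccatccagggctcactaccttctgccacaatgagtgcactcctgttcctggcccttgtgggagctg
Prss2: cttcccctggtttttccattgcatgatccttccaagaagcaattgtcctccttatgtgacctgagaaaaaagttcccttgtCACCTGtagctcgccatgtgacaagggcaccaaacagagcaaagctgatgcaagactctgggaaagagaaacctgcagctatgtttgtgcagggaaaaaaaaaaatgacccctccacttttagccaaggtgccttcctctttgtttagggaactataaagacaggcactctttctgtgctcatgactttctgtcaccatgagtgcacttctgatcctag
Prss1 held 2 matches and Prss2 1, with 55.6% of the aligned columns identical. Over all members, 8 of the 9 windows held at least 1 match on either strand, against 20.2% of the 32851 RefSeq promoter windows of the same length. The letters TATAAA, searched on both strands, were in 4 of the 9 windows, against 13.6% of all. A match is only a match of letters, and its absence says only that these letters are not in this window. Both the genes that followed Clps and those that did not held the E-box letters, as the Cela3b and Cela3a windows show.

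Levels between genes can be set side by side only per length. As median CPM per kilobase of the principal transcript, Ctrb1 stood first with 9897, followed by Cela2a with 4314, Prss2 with 3872, Cela1 with 3614, Clps with 2283, Cela3b with 1973, Ctrl with 1160 and Ctrc with 624. Far below them came Prss3 with 13.9, Prss1 with 1.31 and Cela3a with 1.22. Ctrb1 was above Cela2a, and Cela1 above Clps, in 95 of 95 libraries. Other neighbours changed places: Cela2a was above Prss2 in 64 libraries, Prss2 above Cela1 in 54, and Prss1 above Cela3a in 42, so those pairs had no fixed order.

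Of the 10 genes, 5 followed Clps closely and 5 did not. A straight line of log2 CPM on the log2 CPM of Clps held 98.3% of the sum of squares of Cela1 over the 95 libraries, 97.7% of that of Cela2a, 97.5% for Cela3b, 97.3% for Prss2 and 95.9% for Ctrb1. It held 54.2% for Prss3, 53.0% for Prss1, 52.3% for Ctrc, 45.1% for Ctrl and 36.0% for Cela3a. What was left around the line had a standard deviation over 1 log2 unit for these 5 genes, against 13.6% of 15765 genes in the table. No member lay close to this threshold: the nearest above it was Prss3 at 1.75 log2 units and the nearest below it Ctrb1 at 0.41. The median of this residual standard deviation was 1.08 over the members and 0.37 over all genes tested.

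The numbers in the labels fall into 12 runs (1 to 8, 9 to 16, 17 to 24, 25 to 32, 34 to 39, 40 to 48, 49 to 58, 59 to 65, 66 to 75, 76 to 85, 86 to 90 and 91 to 100), with 5 numbers missing. These runs come from earlier descriptions of these data and are not groups of the study. After the line on Clps, over 50% of the remaining sum of squares lay between the runs for all 10 genes, but so it did for 70.6% of all genes tested, so this share is no particular feature of the proteases. The medians of this share were 81.4% over the members and 60.02% over all genes. What differed among the proteases was how far apart the run medians lay. The run medians of the log2 ratio to Clps spanned 0.72 for Cela1, 1.02 for Cela3b, 1.08 for Prss2, 1.12 for Cela2a and 1.23 for Ctrb1. They spanned 6.54 for Prss1, 6.62 for Ctrc, 6.94 for Prss3, 7.75 for Ctrl and 9.09 for Cela3a. The spread within a run, highest minus lowest ratio, had a median of 0.40 for Ctrl and 0.43 for Ctrc. It was 1.97 for Prss3, 2.81 for Cela3a and 3.19 for Prss1. In 86 to 90, the run with the highest median of Prss1 and Prss3, their spreads were 8.44 and 5.76. For Prss1 this exceeded the span of its run medians. Prss1 and Cela3a had low levels in most runs, so their spans and spreads also depend on the level of Clps. Cela3a had run medians of 0.893 CPM in 9 to 16 and 0.443 CPM in 25 to 32, with ratios of -11.42 and -9.20. The run medians of Clps there were 2609 and 256 CPM.

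**Figure D1:**
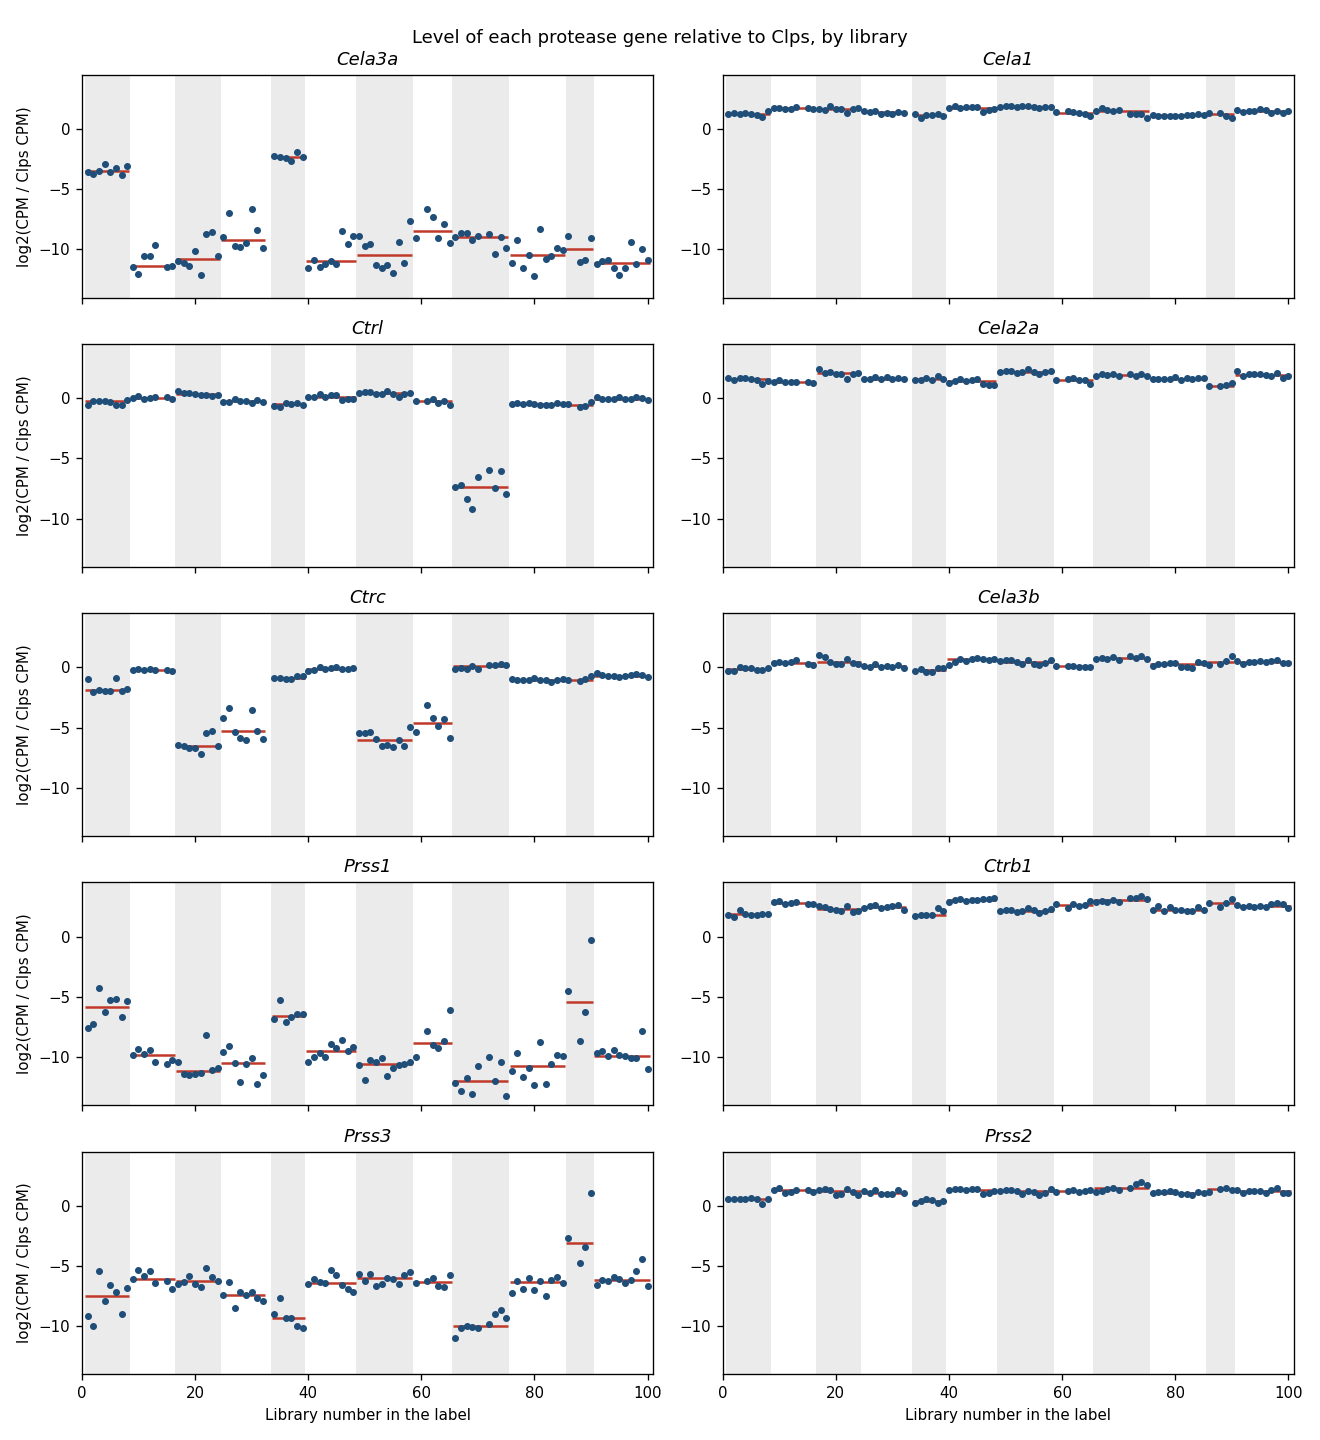
Each point is 1 of the 95 libraries, with its label number on the x axis and the log2 ratio of the gene's CPM to the CPM of Clps on the y axis; shaded and white bands are the 12 runs of numbers and red bars the run medians. Cela3a stood high in numbers 1 to 8 and 34 to 39, Ctrl low in 66 to 75 and Ctrc low in 17 to 32 and 49 to 65, while the 5 genes on the right stayed within narrow bands.

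**Figure D2:**
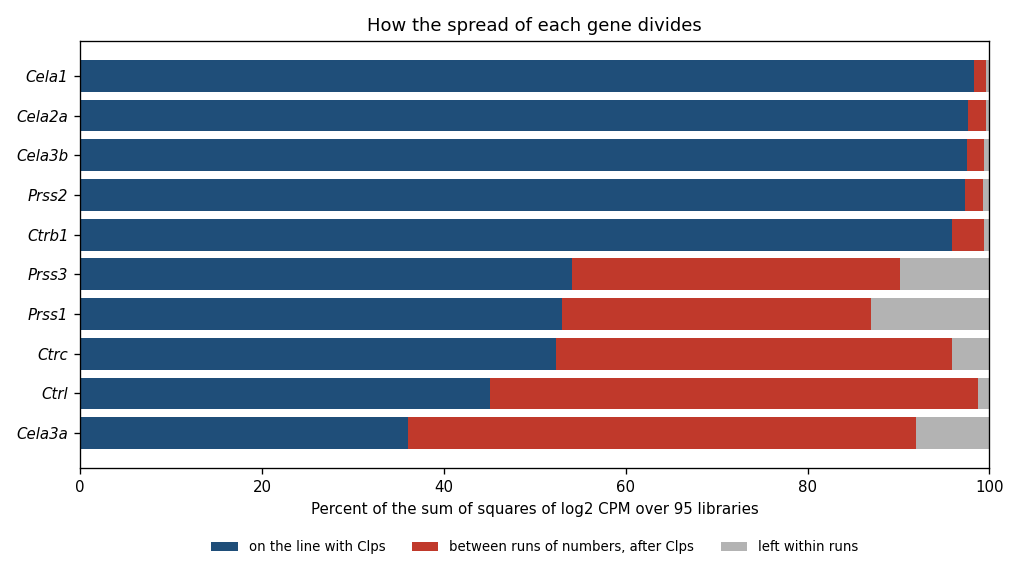
Stacked bars give, for each gene, the percent of the sum of squares of log2 CPM over 95 libraries that lay on the line with Clps, between the 12 runs after Clps, and within runs. The line held 95.9% or more for the 5 upper genes and 36.0% to 54.2% for the 5 lower ones.

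Among the elastases, Cela1, Cela2a and Cela3b varied with Clps. Cela1, a pancreatic elastase, had 159 CPM at its lowest, a median of 4004 CPM and 74590 CPM at its highest, yet its log2 ratio to Clps stayed between 0.90 and 1.95. Cela2a had 171 CPM at its lowest, a median of 4616 CPM and 105471 CPM at its highest, and a log2 ratio between 0.98 and 2.45. Its run medians were highest in 49 to 58, at 2.17, and lowest in 86 to 90, at 1.05. Cela3b had 60.2 CPM at its lowest, a median of 1827 CPM and 29563 CPM at its highest, and a log2 ratio between -0.40 and 1.00. All 3 genes had their lowest CPM in library 25 and their highest in library 54, the same libraries that had the lowest and highest Clps.

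Cela3a, an elastase next to Cela3b on the chromosome, was abundant in 14 libraries only. In numbers 1 to 8 it had 57.5 CPM at its lowest, a median of 381 CPM and 1472 CPM at its highest. In numbers 34 to 39 it had 413 CPM at its lowest, a median of 2033 CPM and 3543 CPM at its highest. In the other 81 libraries it had between 0.041 and 20.6 CPM, with a median of 0.966 CPM, and in 2 libraries its estimated count was 3 or less. The 14 libraries were picked by run after these values were seen, and how many other genes part the same libraries is not given here. The 14 libraries and the other 81 did not overlap. Their log2 ratios to Clps ran between -3.85 and -1.90 in the 14 libraries and between -12.17 and -6.62 in the others, and Clps itself overlapped widely, at 686 to 17564 CPM in the 14 and 57.1 to 19305 CPM in the others.

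The 2 runs with high Cela3a also differed from each other. Relative to Clps, its log2 ratio was -2.63 to -1.90 in numbers 34 to 39 and -3.85 to -2.89 in numbers 1 to 8, with no overlap. As a share of the summed estimated counts of Cela3a and Cela3b, Cela3a took 17.4% to 21.3% in 34 to 39 and 7.42% to 12.0% in 1 to 8. In the other 10 runs its highest share was 0.851%.

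Because these neighbours are near copies, their counts may be split unevenly. Of all 31-base words in the Cela3a transcripts, 45.8% also occurred in Cela3b, and 26.0% of the Cela3b words occurred in Cela3a. The aligned principal transcripts were identical in 89.6% of the columns. How the authors' counting divided shared reads was not given in the sources used here. The sum of both genes had a log2 ratio to Clps between -0.19 and 1.00. Cela3b made up at least 78.7% of this sum in every library, so the sum had to follow Cela3b and says nothing of how shared reads were divided. The run medians of the Cela3b ratio were lowest in 34 to 39, at -0.25, and in 1 to 8, at -0.14. Ctrb1 also had its lowest run medians there, 1.81 and 1.85. Whether shared reads had a part in the low Cela3b ratios was not tested.

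**Figure D3:**
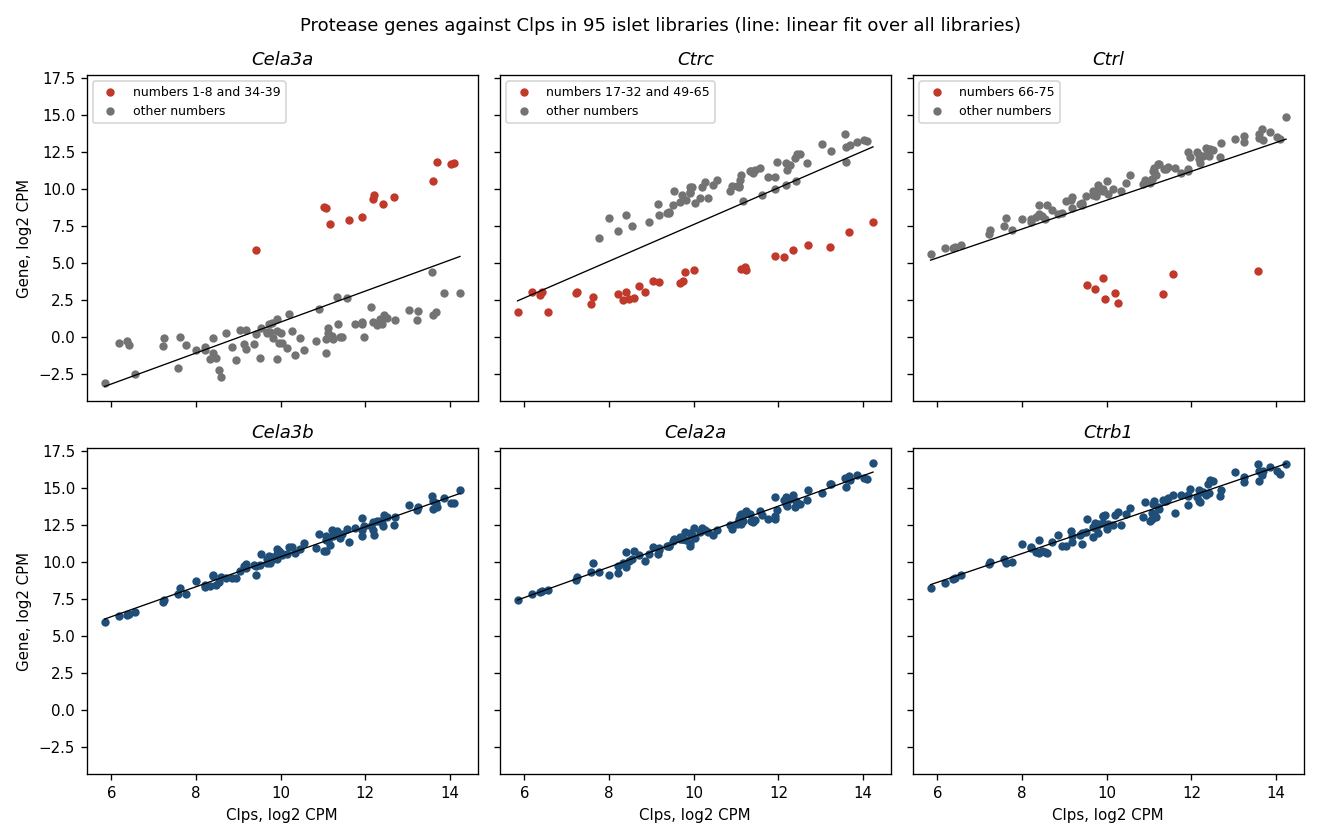
Each point is 1 of 95 libraries, with log2 CPM of Clps on the x axis and log2 CPM of the gene on the y axis; lines are linear fits over all libraries, and red points mark the named runs of numbers. The red points of Cela3a lie above all others at the same Clps and those of Ctrc and Ctrl below them, while Cela3b, Cela2a and Ctrb1 form single bands.

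Ctrb1, the major chymotrypsinogen, was the most abundant of the proteases per length. It had 296 CPM at its lowest, a median of 8689 CPM and 100949 CPM at its highest, in library 69. Its log2 ratio to Clps ran between 1.66 and 3.36, with run medians lowest in 34 to 39, at 1.81, and highest in 66 to 75, at 3.04. No 31-base word of Ctrb1 occurred in another gene, and it overlapped no other gene, as was also true of Clps.

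Ctrl, the chymotrypsin-like protease, was low in a single run. In libraries 66, 67, 68, 69 and 70 it had 18.5, 7.83, 7.46, 21.2 and 9.06 CPM, and in libraries 72, 73, 74 and 75 it had 15.7, 5.70, 11.4 and 4.79 CPM. In the other 86 libraries it had 46.9 CPM at its lowest, a median of 1423 CPM and 29899 CPM at its highest. The 9 libraries, a run picked after these values were seen, lay below every other library. Their log2 ratio to Clps was -9.17 to -5.93, against -0.75 to 0.63 elsewhere.

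Clps had 740 to 12243 CPM in numbers 66 to 75, and Ctrb1 in the same libraries had 6136 to 100949 CPM. Library 69 held 12243 CPM of Clps and 100949 CPM of Ctrb1 beside 21.2 CPM of Ctrl. No 31-base word of Ctrl occurred in another gene and no gene overlapped it. The lowest estimated count of Ctrl in any library was 147, against the counting floor of 3 counts. What lay behind the low level was not tested. Among the other 11 runs, the highest run median of the Ctrl ratio was 0.40, in 49 to 58.

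Ctrc, chymotrypsin C, which in humans is known to regulate trypsinogen activation and degradation, fell into a low and a high set of runs. In numbers 17 to 32 and 49 to 65, which held 32 libraries, it had 3.08 CPM at its lowest, a median of 11.5 CPM and 219 CPM at its highest. In the other 63 libraries it had 104 CPM at its lowest, a median of 1178 CPM and 13147 CPM at its highest. Their CPM overlapped, but the log2 ratios to Clps did not: -7.17 to -3.15 in the 32 libraries and -2.03 to 0.30 in the 63. These runs too were picked after the values were seen.

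The low set was not uniform. The ratio was -7.17 to -4.91 in numbers 17 to 24 and 49 to 58, where Clps had 197 to 19305 CPM, and -6.01 to -3.15 in 25 to 32 and 59 to 65, where Clps had 57.1 to 864 CPM. In those 14 libraries of little acinar RNA Ctrc stayed between 3.08 and 13.3 CPM. The high set also varied by run. In numbers 9 to 16, 40 to 48 and 66 to 75, which held 25 libraries, the log2 ratio was -0.34 to 0.30, and no other library reached above -0.48. In numbers 34 to 39 it was -0.97 to -0.74. In numbers 76 to 100, which held 24 libraries, it was -1.22 to -0.48, a range that takes in that of 34 to 39. Numbers 1 to 8 were split, with libraries 1 and 6 at -1.01 and -0.91 and the other 6 libraries between -2.03 and -1.79.

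Ctrc shares its position with other genes, which is given here beside its level. In the authors' table it overlapped Cela2a on the same strand and Casp9, a caspase gene of the other strand, and whether strand was used in counting was not given in the sources used here. Of the Ctrc words of 31 bases, 19.2% occurred in Cela2a. All of these lay in a transcript of 591 bases marked for nonsense-mediated decay, of which 49.9% of the words occurred in Cela2a, while the coding transcripts of 951 and 784 bases shared 0%. The part of the shared position in the Ctrc level was not tested.

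Prss2, an anionic trypsinogen, was the abundant member of the trypsinogens described here. It had 133 CPM at its lowest, a median of 3155 CPM and 44609 CPM at its highest, with a log2 ratio to Clps between 0.14 and 1.96. The 14 libraries in which Cela3a was abundant had the 14 lowest Prss2 ratios, 0.14 to 0.60, and every other library had at least 0.90. The run medians were 0.36 in 34 to 39 and 0.53 in 1 to 8, against 1.05 to 1.44 in the other 10 runs. The run medians of Cela3b (-0.25 and -0.14) and Ctrb1 (1.81 and 1.85) were also lowest in these runs. With Pnlip, Cpa1, Cpb1 and Cel in place of Clps, the 10th to 90th percentile range of the Prss2 ratio was 0.55. With Clps it was 0.88. Whether Clps itself differed in these runs was not tested. Prss2 shared 22.5% of its words with other genes, and 17.2% of its words with Try4, another trypsinogen of the same cluster.

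Prss1 was a low-level gene in most libraries. Its median was 1.06 CPM, 47 of the 95 libraries were under 1 CPM, and 12 had an estimated count of 3 or less. In numbers 1 to 8 and 34 to 39 it had 3.44 CPM at its lowest, a median of 60.05 CPM and 444 CPM at its highest. In libraries 86, 88, 89 and 90 it had 12.5, 9.19, 44.5 and 1601 CPM. In the other 77 libraries it had a median of 0.665 CPM and 15.3 CPM at its highest. The sets overlapped, in CPM and in the log2 ratio to Clps, which was -8.70 to -0.26 in the 18 libraries of the named runs and -13.20 to -6.10 elsewhere. Without library 90, the highest ratio was -4.30, and the standard deviation around the line on Clps was 2.00 log2 units, against 2.20 with it.

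Prss3 was the third trypsinogen. It had 0.257 CPM at its lowest, a median of 11.5 CPM and 3885 CPM at its highest, in library 90. In libraries 86, 88, 89 and 90 it had 46.2, 145, 310 and 3885 CPM, with log2 ratios to Clps of -2.68, -4.74, -3.47 and 1.02. In numbers 66 to 75 it had 0.645 to 11.5 CPM and a ratio of -10.95 to -8.66, and in 1 to 8 and 34 to 39 a ratio of -10.19 to -5.45. So Prss3 was low where Prss1 was raised in 34 to 39, with run medians of the ratio of -9.29 for Prss3 and -6.58 for Prss1. Leaving out library 90, its standard deviation around the line was 1.55 log2 units, against 1.75 with it.

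The trypsinogens are a cluster of near copies, and the values of Prss1 and Prss3 need that beside them. Of their 31-base words, 69.3% of those of Prss1 and 75.4% of those of Prss3 occurred in another gene, most often in Gm5771 for Prss1 (54.8%) and in Gm10334 for Prss3 (73.7%). Both partners lie in the same cluster on chromosome 6. Of the summed counts of 10 trypsinogen-like genes there (Prss1, Prss2, Prss3, Try4, Try5, Try10, Gm5771, Gm10334, 1810009J06Rik and 2210010C04Rik), Prss2, Try4, Try5 and 2210010C04Rik took 64.2% to 99.6%, with a median of 99.2%. The sum of all 10 kept a log2 ratio to Clps between 2.09 and 4.22, a sum that these abundant genes largely make up.

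Library 90 had the highest share of the minor genes of this cluster, and library 86 the next highest. The 6 minor genes took 35.8% of the trypsinogen-like counts there. In libraries 86, 88 and 89 of the same run they took 5.14%, 1.25% and 2.83%. In the other 11 runs their median shares lay between 0.532% and 2.07%, and their highest share in any library of those runs was 3.32%. In library 90 Gm5771 had 2769 CPM, Gm10334 2551 CPM and 1810009J06Rik 1942 CPM, and the highest of each elsewhere was 111, 96.8 and 100.4 CPM. Prss2 had 4855 CPM there, within its range elsewhere. Of the minor genes Try10 was the exception, at 68.8 CPM in library 90, equal to its median over the 95 libraries.

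**Figure D4:**
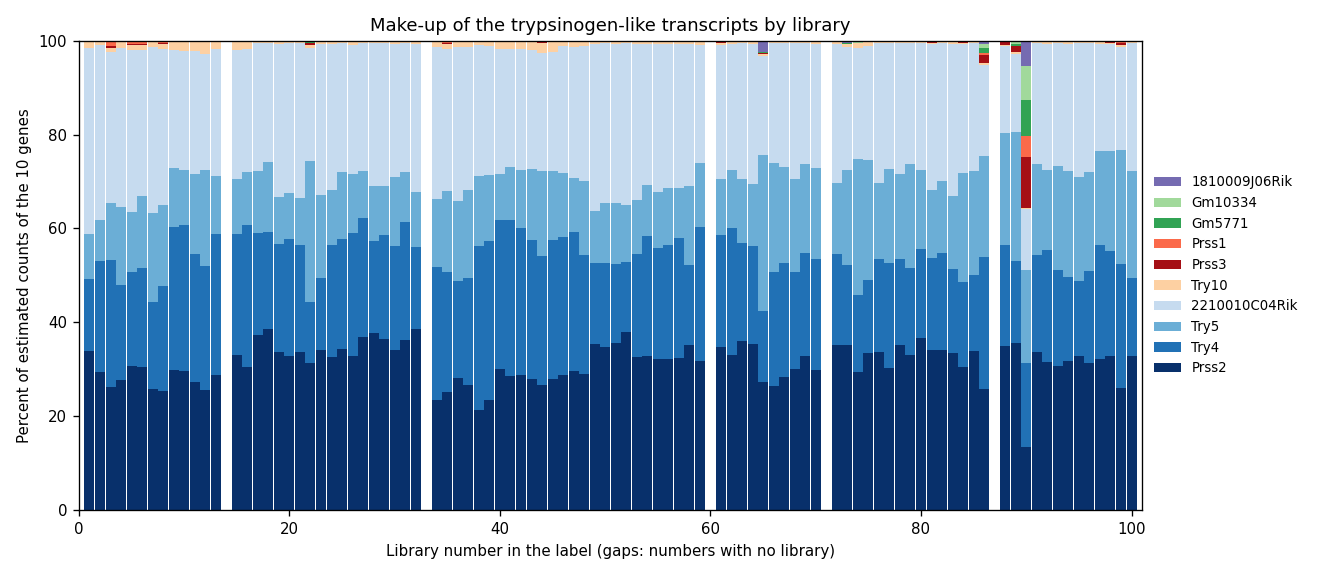
Each bar is 1 library, with its label number on the x axis, and the y axis gives the percent of the estimated counts of 10 trypsinogen-like genes that each took; gaps are numbers with no library. Prss2, Try4, Try5 and 2210010C04Rik made up nearly all bars, and in library 90 the 6 minor genes took 35.8%.

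Acinar genes were not raised in library 90, which had 1918 CPM of Clps and ranked 45th of the 95 for it. Several duct genes stood higher. The summed level of 8 duct markers was 508, 566, 688 and 1325 CPM in libraries 86, 88, 89 and 90, against 221 to 1726 CPM in the other 91 libraries, whose median was 361 CPM. Sox9, a duct transcription factor, had 20.6 CPM, Spp1, osteopontin, 888 CPM and Cftr, the chloride channel of duct cells, 5.44 CPM in library 90, each the highest of the 95. Krt19 ranked 2nd at 24.3 CPM and Krt7 20th, and 0 of the 8 were at 0 there. The part of the duct markers in the trypsinogen values was not tested.

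Other acinar genes were described the same way. Of the 25 listed acinar genes without Clps, 5 had a residual standard deviation over 1 log2 unit, beside 13.6% of all genes. They were the amylase genes Amy1, Amy2a3, Amy2a4 and Amy2b, and Rbpjl, a subunit of the acinar factor PTF1. The median over all 25 was 0.46. Pnlip, pancreatic lipase, had 0.21 and Cpa1, a carboxypeptidase, 0.31. Of 6 listed inhibitor symbols 4 were in the table and 3 of these were over 1. Spink1, the trypsin inhibitor of acinar cells, was not, at 0.59, with 1.78 CPM at its lowest, a median of 70.1 CPM and 645 CPM at its highest. Serpini2, a pancreatic serpin, had a median of 32.7 CPM and 1.15, and Serpina1a and Serpina1b, antitrypsins made by the liver, had medians of 0.529 and 0.897 CPM. Ctsb and Ctsl, lysosomal cathepsins that act on trypsinogen, had medians of 221 and 134 CPM and residual standard deviations of 0.32 and 0.21. The listed symbols Tmprss15, Spink3 and A2m were not found in the count table, so they were not analysed here.

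The genes whose levels after the line on Clps were most like those of Cela3a, Ctrc and Prss1 were named by a fixed rule, the 5 highest Spearman correlations of residuals over the 95 libraries, which share their runs. For Cela3a they were Rps15-ps2 (0.811), Gm13341 (0.785), Gipc2 (0.776), Aldh3a2 (0.768) and Rpl9 (0.763). Rps15-ps2 had a median of 0.0312 CPM and at most 38.1 CPM, and Aldh3a2, a fatty aldehyde dehydrogenase, had a median of 74.4 CPM. For Ctrc they were Top1mt (0.883), Speg (0.871), Tpm3-rs7 (0.840), Gm13225 (0.833) and Mmrn2 (0.829). Top1mt, the mitochondrial topoisomerase, had 0.511 CPM at its lowest and 7.64 CPM at its highest. For Prss1 they were Cyp2d22 (0.763), Qpct (0.755), Agrn (0.706), Aldoc (0.706) and St3gal4 (0.677). By the same measure, added for Ctrl after its values were seen, Decr2 came first at 0.816. None of these genes is a digestive protease.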

How the data were processed

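Per the labels' protocols, libraries were made from poly(A) RNA of islets. The authors deposited a table of estimated counts per gene, of which 67.7% were whole to within 1e-06, with no normalization. A second deposited table of variance-stabilised values, close to a log2 scale, was used only as an alternative. The submitters' processing notes name GRCm38 and DESeq2; the aligner, the counting tool and its use of strand are not given in the sources used here.

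CPM used TMM library sizes (edgeR 4.0.16, factors 0.463 to 1.36), and log2 values a prior count of 2. The filter (a minimum CPM of 1 in 10 libraries) kept 15766 genes, and each other than Clps was fitted on Clps by a straight line. Tables were made in Python 3.11.15 with pandas 2.3.3, after a check on simulated data; the alternative scaling used DESeq2 1.42.0. Words of 31 bases were read from GENCODE M21 transcripts. Depth limits only genes of low count, with 3 counts taken as the floor.

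The genes, lists, runs of numbers and thresholds were chosen with earlier results of these data known. The named genes are the members, Clps, the listed genes and, for Cela3a, Ctrc and Prss1, the 5 genes most like each; the runs set out for each gene, library 90 and the genes like Ctrl were chosen after their values were seen. No library had a group, so no test was made. Alternatives were another scaling, prior count, low-count filter, reference gene set and set of libraries.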

Additional observations from a re-analysis of the deposited data

How the results depend on the processing

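No paired analysis was possible because the labels give no groups and no replicate numbers, and for the same reason no replicate was left out. For the log2 ratio to Clps itself, all 10 members had over 50% of the sum of squares between runs, 9 with Pnlip, Cpa1, Cpb1 and Cel in place of Clps and 3 with blocks of 10 label numbers in place of the runs. For what was left after the line on Clps, a different quantity, the count over all genes was 11124 (70.6%), and 3628 (23.0%) with those blocks. The 5 members over 1 log2 unit numbered 5 under each of 6 alternatives, leaving out library 90 among them, which were added after seeing the data. Medians and ranges per member, 120 values, were recomputed under 6 alternatives, and each move was set against the gene's own SD over the libraries. This SD of the log2 ratio was 0.28 for Cela1 and 2.83 for Cela3a, so a wide shift could stay within it. A library's scaling cancels in a ratio to Clps, so the 20 values with the other scaling could hardly move. Of the 120 values, 112 moved by less than 1 SD. The 8 others were the medians of Cela1, Cela2a, Cela3b, Ctrb1 and Prss2 against the other reference genes (0.02, 0.31, -1.18, 0.99 and -0.39), the median of Prss1 on variance-stabilised values (-7.32), and the 10th to 90th percentile range of Ctrl. The last was 1.12 over all libraries, 4.24 without libraries above 90 and 4.23 without the 10 libraries lowest in Clps, because the 9 low libraries are just under 10% of 95. Prss1 is limited by depth, with 3 counts or less in 12 libraries. Cela3a was low as well, under 1 CPM in 41 libraries. Its median ratio was -7.19 on variance-stabilised values, against -9.68 in the main setting, a move within 1 SD.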

Other observations

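For some genes the sorted log2 ratios to Clps left wide gaps. The widest gap of Ctrl was 5.18 log2 units and put 9 libraries below it, with ratios of -7.35, -7.22, -8.41, -9.17 and -6.52 in libraries 66 to 70 and of -5.93, -7.43, -6.01 and -7.98 in libraries 72 to 75. The widest gap of Cela3a was 2.77 log2 units and left 14 libraries above it. Their ratios were -3.58, -3.72, -3.48, -2.89, -3.55, -3.26, -3.85 and -3.08 in libraries 1 to 8 and -2.27, -2.34, -2.38, -2.63, -1.90 and -2.33 in libraries 34 to 39.

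The widest gap of Prss2, 0.30 log2 units, put these same 14 libraries below it. The run medians of Cela3b and Ctrb1 were lowest in their runs as well. The Prss2 ratios of the 14 libraries were 0.53, 0.53, 0.53, 0.55, 0.60, 0.55, 0.14 and 0.52 in libraries 1 to 8 and 0.27, 0.38, 0.55, 0.51, 0.23 and 0.35 in libraries 34 to 39. For Ctrc the widest gap was 1.12 log2 units, between 32 libraries of numbers 17 to 32 and 49 to 65 and the other 63. For Prss1 and Prss3 the widest gaps, 4.04 and 3.70 log2 units, left library 90 alone above, at -0.26 and 1.02. For Cela1 and Cela3b no gap was wider than 0.07 and 0.08 log2 units.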
